A study of Mus musculus with 3 samples.

Results

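Metalloproteinases, their catalytically inactive relatives and their tissue inhibitors were compared across 3 sorted populations of mouse endosteal cells, the cells that line the inner surface of bone. The members were taken by gene symbol: every gene named on the array as Mmp, Adam, Adamts, Adamtsl or Timp followed by a number, 70 of the 18193 genes with a named probe set. They comprised 18 MMP genes, 28 ADAM genes, 15 ADAMTS genes, 5 ADAMTS-like genes and 4 TIMP genes, read by 124 probe sets. For a gene with several probe sets, the one with the highest mean signal over the 3 arrays was used.

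The cells came from femur and tibia fragments of C57BL/6 mice after collagenase digestion, and cells lacking CD45 (leukocytes), CD31 (endothelium) and Ter119 (the red cell lineage) were split by their surface ALCAM, which mediates cell adhesion, and Sca-1, found on progenitors. The ALCAM+ Sca-1- cells are called ALCAM+ here, the ALCAM- Sca-1+ cells Sca-1+, and the ALCAM- Sca-1- cells marker-negative. Age, sex and the number of mice pooled for a sort were not given in the sources used here, and the labels name no treatment or genotype beyond the strain. Each population was hybridised to 1 array, so no difference has a replicate check, no test between populations was possible, and "higher" and "lower" in a count refer to a size rule of 4-fold.

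MMPs are zinc-dependent enzymes, secreted or anchored in the cell membrane, that cut collagens and other matrix proteins and are made as inactive proenzymes. ADAMs are membrane proteins, many of which release growth factors, cytokines and receptors from the cell surface, and ADAMTS enzymes are secreted and cut proteoglycans, procollagens and other matrix proteins. ADAMTS-like proteins share the ancillary domains of ADAMTS enzymes but lack the catalytic domain, and several bind fibrillin microfibrils. TIMPs are secreted inhibitors of MMPs and of some ADAM and ADAMTS enzymes. In bone, MMP13 of hypertrophic chondrocytes and osteoblasts, MMP9 of osteoclasts, and MMP14 with its substrate MMP2 are known for their roles in growth and remodelling.

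Signals are intensities on a linear scale, and a value at or below 75.4, the median over all non-control probe sets of the 3 arrays, was raised to that floor before a fold was taken. The 2% trimmed mean was 500.0 on each array, and between 48.9% and 51.4% of probe sets lay above the floor. Alcam gave 268 in ALCAM+ cells and 36.3 to 41.1 in the others, whereas Pecam1, which encodes CD31, lay at 5.20 to 9.10. Ptprc, which encodes CD45, gave 11.6 in ALCAM+ cells, 163 in Sca-1+ and 159 in the marker-negative cells. Sca-1 itself was not analysed here. Markers of other cell types differed between the arrays. The summed signal of 9 neutrophil genes was 413 in ALCAM+ cells, 16363 in Sca-1+ and 3545 in the marker-negative cells, and that of 4 erythroid genes was 170, 115 and 9975. In bulk RNA from a sort, fewer cells of a type and less RNA per cell cannot be told apart.

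The members most often had their highest signal in Sca-1+ cells. Of the 70 members, 31 lay above the floor in ALCAM+ cells, 42 in Sca-1+ and 34 in the marker-negative cells. Over all 18193 genes these counts were 11093, 11105 and 11496. On at least 1 array 45 members (64.3%) did so and are called measured, against 69.5% of all genes. Of these 45 genes, 30 (66.7%) were highest in Sca-1+, 8 in ALCAM+ and 7 in marker-negative cells. Over all 12643 measured genes the shares were 38.7% in Sca-1+, 28.1% in ALCAM+ and 33.2% in marker-negative cells. A gene above the floor on 1 array only had to be highest there. This held for 11 members, 9 of them in Sca-1+ cells. Of the 28 members above the floor on all 3 arrays, 16 (57.1%) were highest in Sca-1+ cells, against 39.8% of the 9879 genes of that kind.

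The 3 populations were set against each other in 3 comparisons, which share arrays and so are not independent. Against marker-negative cells, 11 of the 45 measured members were higher by 4-fold or more in Sca-1+ cells, where 5.46% of all 12643 measured genes were, and 1 was lower, where 4.71% of genes were. With a floor at the 75th percentile, the 11 became 6. Against the same cells, 3 members were higher in ALCAM+ cells (2.01% of genes) and 1 was lower (2.67% of genes). Between the marker-positive populations, 4 members were higher in ALCAM+ than in Sca-1+ cells (3.99% of genes) and 8 were lower (5.86% of genes). The last count became 14 with the arrays scaled on hybridization controls, 17 on poly-A spike-in controls and 4 with a floor at the 75th percentile. A gene above the floor on 1 array only can pass the rule only towards that array. Of the 28 members above the floor on all 3 arrays, 4 passed it upwards and 4 downwards in ALCAM+ relative to Sca-1+ cells. Of the 9879 such genes, 3.31% and 4.93% did. The surplus of 8 over 4 thus came from members at the floor in ALCAM+ cells. With marker-negative cells as the reference, 6 of the 28 passed it upwards in Sca-1+ cells and 1 downwards (4.69% and 3.26% of such genes). In all, 15 members differed at least 4-fold somewhere and 30 measured members did not. The matching share of all genes was not counted.

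The median log2 difference of the measured members was 1.07 for Sca-1+ minus marker-negative cells (0.00 over all measured genes), 0.00 for ALCAM+ minus marker-negative cells (-0.03 over all genes) and -0.71 for ALCAM+ minus Sca-1+ cells (-0.01 over all genes). Over the 28 members above the floor on every array these medians were 1.00, 0.27 and -0.18. Over the 9879 genes of that kind they were 0.00, -0.04 and -0.06. The median for Sca-1+ minus marker-negative cells was 2.82 over the 5 ADAMTS-like genes, 1.20 over 12 ADAMTS genes and 1.07 over 13 MMP genes. It was 0.61 over 3 TIMP genes and 0.60 over 12 ADAM genes. Some of these genes were measured through the Sca-1+ array alone. Over every member, measured or not, the medians were 2.82, 0.95, 0.30, 0.31 and 0.00 in the same order. The medians of measured members stayed above 0 under every alternative, each of which keeps such a filter. That of the TIMP genes fell to 0.09 with the floor at the 25th percentile. Under the control scalings the median of all measured genes was itself 0.20 and 0.24. For ALCAM+ minus Sca-1+ cells the medians of measured members were -3.27 over the ADAMTS-like, -1.0 over the ADAMTS and -0.44 over the ADAM genes. They were 0.00 over the MMP and TIMP genes.

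**Figure D1:**
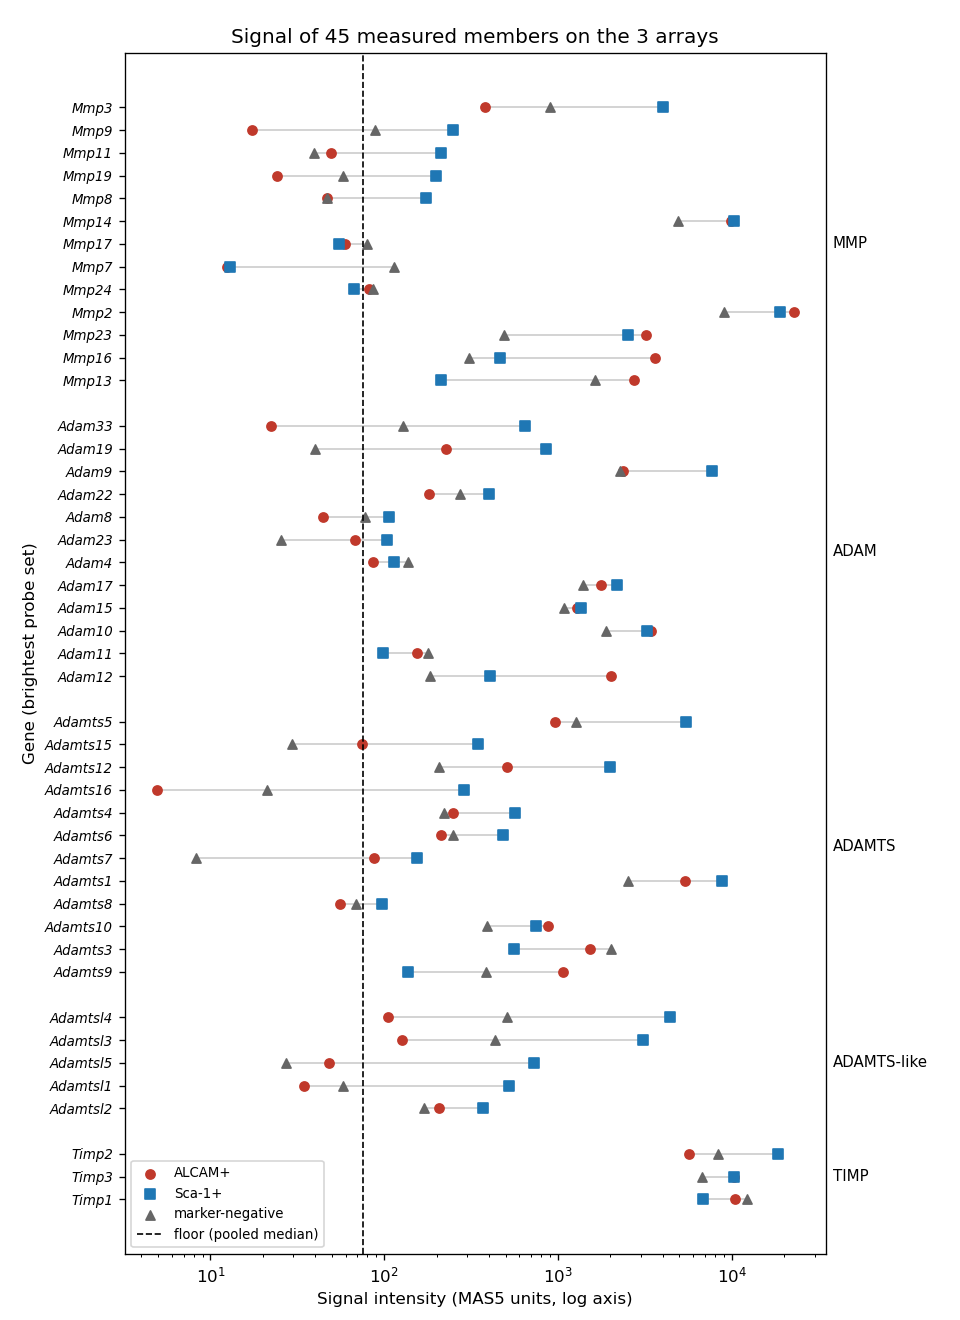
Signal intensity (log axis) of the 45 measured members, 1 row per gene and 1 symbol per population, with families separated and the floor of 75.4 as a dashed line. Squares for Sca-1+ cells lie farthest right for 30 genes, and all 5 ADAMTS-like genes are among them.

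Of the 15 members past 4-fold, 8 were higher in Sca-1+ cells than in both other populations: Mmp3, Adam33, Adamts5, Adamts15 and the ADAMTS-like genes Adamtsl1, Adamtsl3, Adamtsl4 and Adamtsl5. Adam19 and Adamts12 passed the rule in Sca-1+ against marker-negative cells alone. Adam12 and Mmp16 were higher in ALCAM+ cells than in both others, and Adamts9 was higher in ALCAM+ than in Sca-1+ cells. Mmp13 was lower in Sca-1+ cells than in both others, and Mmp23 was lower in marker-negative cells than in both others.

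**Figure D2:**
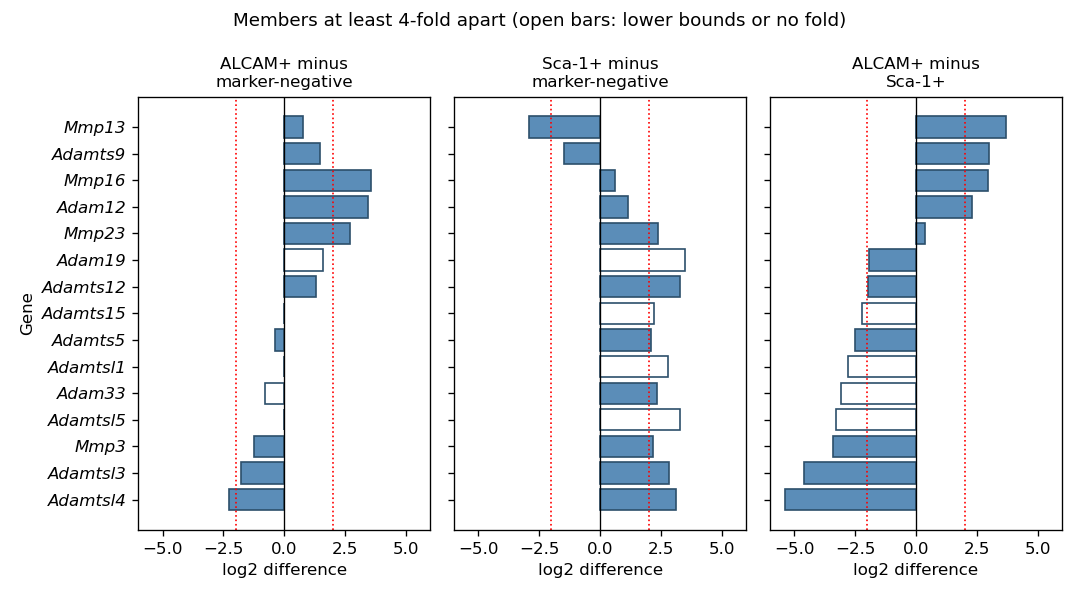
Log2 differences of the 15 members at least 4-fold apart in 1 or more of the 3 comparisons, with dotted lines at 4-fold (log2 of 2 and -2). Open bars are lower bounds, or no fold where both values lie at or below the floor. The lowest 8 genes, from Adamts15 to Adamtsl4, point right in the middle panel and left in the right-hand panel.

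Among the collagenases, which cut the triple helix of fibrillar collagen, only Mmp13 passed 4-fold. Mmp13 gave 2752 in ALCAM+ cells, 212 in Sca-1+ and 1622 in the marker-negative cells. It was thus low in Sca-1+ cells alone, 13-fold below ALCAM+ cells and 7.67-fold below marker-negative cells, while the other populations differed 1.70-fold. The chondrocyte list, which holds Col10a1 of hypertrophic cartilage, had all 6 of its genes lower by 4-fold or more in Sca-1+ than in both other populations, with summed signals of 125861 in ALCAM+ cells, 3757 in Sca-1+ and 103717 in the marker-negative cells. The osteoblast list summed to 122462, 8588 and 45348, with 5 of 5 genes higher in ALCAM+ than in Sca-1+ cells. Whether these cell types carry the Mmp13 signal was not tested. Mmp8, the neutrophil collagenase, gave 46.6 in ALCAM+ cells, 173 in Sca-1+ and 46.7 in the marker-negative cells. It was above the floor in Sca-1+ cells only, at least 2.30-fold over the others, and the rodent genes Mmp1a and Mmp1b stayed at 22.2 or below on all arrays.

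Among the stromelysins, Mmp3 had the opposite pattern to Mmp13. Mmp3, which cuts proteoglycans and activates other pro-MMPs, gave 381 in ALCAM+ cells, 4040 in Sca-1+ and 896 in the marker-negative cells. Its signal in Sca-1+ cells was 10.6-fold above ALCAM+ and 4.51-fold above marker-negative cells, and ALCAM+ cells were the lowest. Mmp11, a stromelysin that is activated inside the cell, gave 49.5, 212 and 39.3 in the same order and so was above the floor in Sca-1+ cells only, by at least 2.81-fold. Mmp10 did not exceed 72.5.

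Mmp13 and Mmp3 belong to a row of MMP genes on chromosome 9, in the order Mmp13, Mmp12, Mmp1b, Mmp3, Mmp1a, Mmp10, Mmp8, Mmp20 and Mmp7 in the RefSeq annotation (GRCm38.p6), with Mmp27 the only other coding gene in the row. Of these 9 members, 4 were measured. Mmp13 was lowest in Sca-1+ cells, and Mmp3 and Mmp8 were highest there, Mmp8 with both other values at the floor. Mmp7, an epithelial matrilysin, gave 113.8 in marker-negative cells and 12.4 to 12.9 in the others. Promoters of these 4 genes from RefSeq follow, from 120 bases before to 30 after the annotated start, because Mmp13 and Mmp3, which had opposite directions across the sort, lie in the same row of genes. Capitals mark the letters of 3 motifs on either strand: TGANTCA (the AP-1 motif, where N is any base), TATAAA (the TATA box) and TGTGGT (the RUNX motif).
Mmp13: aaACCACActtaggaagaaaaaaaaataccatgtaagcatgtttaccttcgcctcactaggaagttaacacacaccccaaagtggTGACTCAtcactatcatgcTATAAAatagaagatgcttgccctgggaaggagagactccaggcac
Mmp3: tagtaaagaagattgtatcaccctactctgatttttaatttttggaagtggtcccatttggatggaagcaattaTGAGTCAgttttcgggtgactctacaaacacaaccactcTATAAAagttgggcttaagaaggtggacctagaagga
Mmp7: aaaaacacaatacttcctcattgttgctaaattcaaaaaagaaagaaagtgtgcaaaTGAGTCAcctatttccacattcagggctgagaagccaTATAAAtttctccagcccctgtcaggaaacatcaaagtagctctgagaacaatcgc
Mmp8: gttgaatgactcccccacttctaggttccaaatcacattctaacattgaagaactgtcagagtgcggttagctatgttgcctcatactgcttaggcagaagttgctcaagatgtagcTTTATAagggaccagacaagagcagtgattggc
The windows lie at chr9:7272394-7272543 (plus strand), chr9:7445702-7445851 (plus), chr9:7691970-7692119 (plus, the first of its 2 annotated starts) and chr9:7558309-7558458 (plus).

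The AP-1 letters start 35 bases before the annotated start of Mmp13, 46 before that of Mmp3 and 63 before that of Mmp7, and are missing from the Mmp8 window, whose TATA letters lie on the opposite strand. Within 250 bases before to 50 after the start, 8 of the 9 members of the row held the AP-1 letters, all but Mmp8, against 7.81% of 32851 promoters. All 9 held TATAAA on 1 strand, against 13.6% of promoters. Among the 32 other members with a promoter in the table, 3 held the AP-1 letters. RUNX letters, present in 16.8% of promoters, were in the promoters of 3 of the 9 members of the row: Mmp13, 118 bases before the start, Mmp1b, 204 bases before it, and Mmp7, 46 bases before its second start. These genes arose from each other by duplication, so their promoters are not independent, and a match of letters is a description and not a bound site.

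The gelatinases, which cut denatured collagen, differed in pattern. Mmp2 gave 22733 in ALCAM+ cells, 19022 in Sca-1+ and 9069 in the marker-negative cells. Marker-negative cells were lowest, 2.51-fold below ALCAM+ and 2.10-fold below Sca-1+ cells, while the marker-positive populations differed 1.20-fold in a direction that turned under quantile normalization and both control scalings. Mmp9 gave 17.3, 248.5 and 88.7 in the same order. It was highest in Sca-1+ cells, 2.80-fold over marker-negative and at least 3.30-fold over ALCAM+ cells, and its second probe set (42.6, 189.6 and 12.8) was above the floor in Sca-1+ cells alone.

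MMP9 and MMP8 are stored in neutrophil granules. Of 9 neutrophil markers, 6 were higher and 3 lower by 4-fold or more in Sca-1+ than in the marker-negative cells. Late granule genes were highest in Sca-1+ cells: Ngp gave 46.5 in ALCAM+ cells, 4538 in Sca-1+ and 158.5 in the marker-negative cells. Ltf, Camp and Lcn2 were higher by 4-fold or more in Sca-1+ than in both other populations. The same held for the neutrophil markers S100a8 and S100a9. The early granule genes Mpo, Elane and Prtn3 were highest in marker-negative cells, Mpo at 1355 against 25.2 in ALCAM+ and 91.4 in Sca-1+ cells. MMP9 is also an osteoclast enzyme. Of 7 osteoclast markers 4, among them Calcr and Dcstamp, lay below the floor on all arrays. The other 3 were highest in Sca-1+ cells: Ctsk gave 6778 in ALCAM+ cells, 9739 in Sca-1+ and 3290.3 in the marker-negative cells, Acp5 gave 368, 789 and 475, and Atp6v0d2 gave 14.2, 117.8 and 39.8. The list summed to 7239, 10711 and 3908. The part of these cell types in the Mmp8 and Mmp9 signals was not tested.

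Among the membrane-type MMPs, which act at the cell surface, Mmp14 and Mmp16 differed. Mmp14, the activator of proMMP2, gave 9955 in ALCAM+ cells, 10235 in Sca-1+ and 4923 in the marker-negative cells. Like Mmp2 it was lowest in marker-negative cells, by 2.02-fold and 2.08-fold. Mmp16, another membrane-type enzyme that activates proMMP2, gave 3623, 463 and 306. It was high in ALCAM+ cells alone, 7.82-fold over Sca-1+ and 11.8-fold over marker-negative cells. All 3 of its probe sets above the floor had the same direction, from 4.24-fold to 8.98-fold against Sca-1+ cells. Mmp17 and Mmp24 stayed between 54.7 and 85.7 on all arrays.

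Mmp23, a membrane-anchored MMP of unusual domain structure, gave 3217 in ALCAM+ cells, 2522 in Sca-1+ and 488 in the marker-negative cells. Both marker-positive populations were high, 6.59-fold and 5.16-fold over marker-negative cells, and a further probe set gave 7.35-fold and 4.90-fold. Mmp19 gave 24.1, 198 and 57.8 and was above the floor in Sca-1+ cells only. Mmp12 and Mmp20, the macrophage elastase and the enamel enzyme, stayed at 48.5 or below.

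Among the 9 ADAM genes of widely expressed proteolytic enzymes, 8 were measured and 3 passed 4-fold somewhere, a count without a matching share of all genes. Adam12, a sheddase of growth factor precursors with a role in muscle and bone cell differentiation, gave 2029 in ALCAM+ cells, 407 in Sca-1+ and 184 in the marker-negative cells. It was highest in ALCAM+ cells, 11-fold over marker-negative and 4.99-fold over Sca-1+ cells. The difference from Sca-1+ cells fell below 4-fold when all probe sets were averaged and under either control scaling, and the dimmer probe set gave at least 2.63-fold.

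Adam33, linked to airway mesenchyme, gave 22.4 in ALCAM+ cells, 641.5 in Sca-1+ and 128.5 in the marker-negative cells. Sca-1+ cells were highest, 4.99-fold over marker-negative and at least 8.51-fold over ALCAM+ cells, and the other probe set gave at least 5.12-fold against each. Adam19, which sheds neuregulin, gave 225, 856 and 40.1. It was lowest in marker-negative cells, with Sca-1+ cells at least 11.4-fold and ALCAM+ cells at least 2.99-fold above them, and its dimmer probe set gave at least 1.51-fold for Sca-1+ cells.

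The other proteolytic ADAMs differed less. Adam9, which sheds several surface proteins, gave 2360 in ALCAM+ cells, 7662 in Sca-1+ and 2277 in the marker-negative cells, 3.36-fold between the highest and the lowest. Adam10 and Adam17, the main sheddases of Notch and of tumour necrosis factor, were present in all populations. Adam10 gave 3410, 3245 and 1887, and Adam17 gave 1772, 2178 and 1398 in the same order. Their highest and lowest populations differed 1.81-fold and 1.56-fold. Adam15 gave 1079 to 1355 and Adam8, an enzyme of leukocytes and osteoclasts, 44.5 to 106.7, and Adam28, an enzyme of lymphocytes, stayed at 68.3 or below.

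Adam11, Adam22 and Adam23 lack the zinc-binding motif and act as adhesion proteins of neurons. Adam22 gave 181 in ALCAM+ cells, 402 in Sca-1+ and 273.5 in the marker-negative cells, Adam11 lay between 97.9 and 177.5, and Adam23 reached 104.2 in Sca-1+ cells. None of the 3 genes differed by 4-fold. Of 16 ADAM genes known mainly from testis and epididymis, 15 stayed at or below the floor on all arrays, with a highest value of 72.9. The exception, Adam4, gave 85.6 to 136.9 and was within 1.60-fold across populations.

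Of 6 measured ADAMTS enzymes that cut aggrecan or versican, Adamts5 and Adamts15 passed 4-fold for higher signal in Sca-1+ cells, and Adamts9 passed it in the other direction, against ALCAM+ cells. Adamts5, the main aggrecanase of mouse cartilage, gave 966 in ALCAM+ cells, 5443 in Sca-1+ and 1268 in the marker-negative cells. It was high in Sca-1+ cells alone, 5.64-fold over ALCAM+ and 4.29-fold over marker-negative cells. Over its 3 probe sets above the floor the difference from ALCAM+ cells was 4.95-fold to 5.64-fold and that from marker-negative cells 2.97-fold to 4.51-fold. Neither difference passed 4-fold when all its probe sets were averaged, the one below the floor included. Adamts1, its neighbour on chromosome 16 with no coding gene between them, gave 5403, 8824 and 2530. It was also highest in Sca-1+ cells, 3.49-fold over marker-negative but 1.63-fold over ALCAM+ cells, and so did not pass the rule.

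Adamts15 gave 74.9 in ALCAM+ cells, 348 in Sca-1+ and 29.3 in the marker-negative cells. It was above the floor in Sca-1+ cells only, by at least 4.62-fold, and its chromosome 9 neighbour Adamts8 gave 55.6, 97.6 and 68.8. Adamts4, an aggrecanase induced by inflammatory signals, gave 250, 568 and 220, with Sca-1+ cells 2.27-fold and 2.58-fold above the others.

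Adamts9 went the other way. This versican-cutting enzyme gave 1074 in ALCAM+ cells, 136 in Sca-1+ and 383 in the marker-negative cells. ALCAM+ cells were highest and Sca-1+ cells lowest, 7.89-fold apart. Its other probe sets had the same direction but smaller sizes, 2.16-fold and at least 1.46-fold, and the average over probe sets did not pass 4-fold.

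Adamts3, which removes the N-propeptide of procollagens, gave 1534.5 in ALCAM+ cells, 557 in Sca-1+ and 2015 in the marker-negative cells. Sca-1+ cells were lowest, by 2.75-fold and 3.62-fold. The dimmer probe set of Adamts3 gave 112.0, 19.8 and 77.7, at least 1.49-fold and at least 1.03-fold, with ALCAM+ cells highest. The order of ALCAM+ and marker-negative cells also turned with averaged probe sets. Adamts12, which cuts the cartilage matrix protein COMP, gave 509, 1987 and 207. Sca-1+ cells were 9.62-fold over marker-negative and 3.90-fold over ALCAM+ cells, the latter just short of the rule. The former did not pass 4-fold with averaged probe sets, and the latter passed it under both control scalings. Adamts10, a microfibril-associated enzyme, gave 880, 747 and 389, and Adamts6, its relative, gave 213, 483 and 250. Adamts7 gave 87.6, 154 and 8.30.

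Adamts16 gave 4.90 in ALCAM+ cells, 289 in Sca-1+ and 21.2 in the marker-negative cells on its brighter probe set, higher by at least 3.83-fold in Sca-1+ cells. Its other probe set gave 126, 52.2 and 94.3, with Sca-1+ cells the lowest, so that no direction is given for this gene here. The counts of the highest population and the ADAMTS medians above used its brighter probe set, as highest in Sca-1+ cells. Adamts18, Adamts19 and Adamts20 stayed at 44.9 or below.

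All 5 ADAMTS-like genes were highest in Sca-1+ cells. Of these, 4 passed 4-fold against both other populations, as deposited and under both control scalings and quantile normalization. Adamtsl1 and Adamtsl5 were above the floor in Sca-1+ cells only, so they could be highest and pass the rule only there. Of all measured genes, 5.46% were higher by 4-fold or more in Sca-1+ than in the marker-negative cells. In ALCAM+ relative to Sca-1+ cells, 5.86% were lower. The share of all genes past 4-fold against both was not counted. Adamtsl1 fell short of 4-fold in both comparisons with averaged probe sets, and Adamtsl1 and Adamtsl5 did so with the floor at the 75th percentile. Adamtsl4, whose product binds fibrillin-1 and is needed for the lens zonule, gave 105 in ALCAM+ cells, 4391 in Sca-1+ and 511 in the marker-negative cells. Sca-1+ cells were 41.8-fold over ALCAM+ and 8.60-fold over marker-negative cells, and ALCAM+ cells were 4.86-fold below marker-negative cells. Adamtsl3, an extracellular glycoprotein gene, gave 127, 3078 and 435. Sca-1+ cells were 24.2-fold and 7.07-fold over these populations, and ALCAM+ cells were again the lowest. Adamtsl3 and Adamtsl4 have 1 named probe set each, so no second probe set checks them. That of Adamtsl4 was left out of 1 setting, which dropped probe sets with names ending in _x_at, _s_at or _a_at.

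Adamtsl5, which also binds fibrillin, gave 48.0 in ALCAM+ cells, 726 in Sca-1+ and 27.1 in the marker-negative cells, higher by at least 9.63-fold in Sca-1+ cells than in either. Its second probe set gave at least 4.66-fold. Adamtsl1 gave 34.7, 523 and 57.8. It was above the floor in Sca-1+ cells only, by at least 6.94-fold, whereas its other probe sets gave at least 2.45-fold and at least 1.5-fold. Adamtsl2, known from a human dysplasia with short stature, gave 207, 368 and 169 and stayed within 2.17-fold. Markers of fibroblasts and mesenchymal progenitors were also highest in Sca-1+ cells by their sum: all 7 were higher by 4-fold or more in Sca-1+ than in the marker-negative cells, with summed signals of 5986 in ALCAM+ cells, 99329 in Sca-1+ and 3202 in the marker-negative cells. Their part in the ADAMTS-like signals was not tested.

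The promoters of Adamtsl3 and Adamtsl4 are shown because these genes had the largest differences between ALCAM+ and Sca-1+ cells among members above the floor in both. Windows run over the same 150 bases, and capitals mark GGGCGG, the GC box, on either strand.
Adamtsl3: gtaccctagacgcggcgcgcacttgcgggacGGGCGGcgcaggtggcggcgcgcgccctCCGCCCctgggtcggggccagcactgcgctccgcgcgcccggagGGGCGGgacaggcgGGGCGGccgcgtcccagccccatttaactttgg
Adamtsl4: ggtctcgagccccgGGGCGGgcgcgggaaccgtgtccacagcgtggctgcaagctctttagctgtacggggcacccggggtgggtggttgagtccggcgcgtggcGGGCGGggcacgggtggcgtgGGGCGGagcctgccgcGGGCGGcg
They lie at chr7:82335574-82335723 (plus strand) and chr3:95687888-95688037 (minus strand). Neither holds TATAAA or the AP-1 letters, and each holds 4 GC boxes. Other ADAMTS-like promoters differ: that of Adamtsl2 holds TATAAA 30 bases before the start, besides a GC box 83 bases before it. The GC box of Adamtsl5 lies 225 bases before the start, and Adamtsl1 had no promoter to search. GGGCGG was present in 35.7% of all promoters and in those of 21 of the 41 members in the table, among them Timp1, Timp2 and Timp3. It was in no promoter of the MMP row on chromosome 9.

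TIMP genes were above the floor in all populations, apart from Timp4, which stayed at 62.1 or below. Timp1 gave 10406 in ALCAM+ cells, 6837 in Sca-1+ and 12183 in the marker-negative cells. Sca-1+ cells were lowest, 1.78-fold below marker-negative and 1.52-fold below ALCAM+ cells, the latter turning direction under either control scaling. Timp2, which with MMP14 activates proMMP2 and at excess inhibits it, gave 5676, 18368 and 8376. Sca-1+ cells were highest, 3.24-fold over ALCAM+ and 2.19-fold over marker-negative cells, short of the rule.

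Other probe sets of Timp2 gave larger differences. Of its 5 probe sets above the floor, all were lowest in ALCAM+ and highest in Sca-1+ cells, and the other 4 differed 7.81-fold to 13.4-fold between these populations. The next brightest gave 2669 in ALCAM+ cells, 20846 in Sca-1+ and 7464 in the marker-negative cells. Averaged over all its probe sets, and under either control scaling, Timp2 passed 4-fold between these populations.

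Timp3, which binds to the matrix and also inhibits ADAM17 and ADAMTS5, gave 10236 in ALCAM+ cells, 10249 in Sca-1+ and 6697 in the marker-negative cells on its brightest probe set. The populations lay within 1.53-fold there. Its other 3 probe sets were higher in ALCAM+ than in Sca-1+ cells by 1.55-fold, 2.90-fold and, with 1215 against 304, about 4-fold. The size of the Timp3 difference therefore depends on the probe set.

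**Figure D3:**
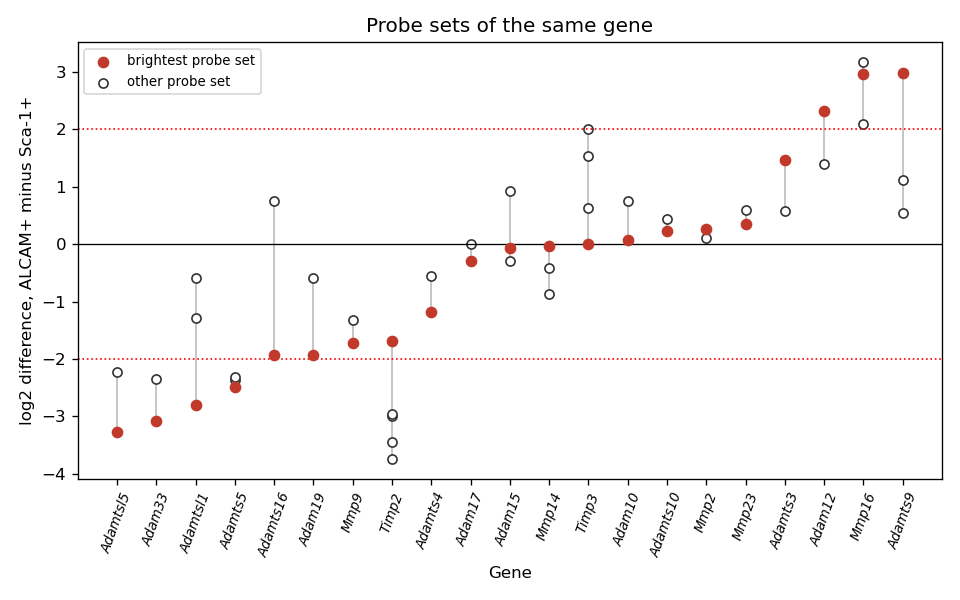
Log2 difference of ALCAM+ minus Sca-1+ cells for each probe set of the 21 members with 2 or more probe sets above the floor in that comparison, with the brightest as a filled circle and dotted lines at 4-fold. All probe sets of Mmp16, Adamts5, Adam33 and Adamtsl5 lie beyond 4-fold on 1 side, those of Timp2 lie between -3.74 and -1.69, and those of Adamts16 lie on both sides of 0.

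Probe sets of the same gene are the only repeat measurement in these data. For ALCAM+ against Sca-1+ cells, 17 of 21 members with another probe set had all of them in the same direction, as did all 7 that were past 4-fold. For Sca-1+ against marker-negative cells the counts were 15 of 20 members and all 6 past 4-fold, and for ALCAM+ against marker-negative cells 15 of 16 members and all 3. For 4152 genes with several probe sets above the floor on every array, the brightest pair was compared. The SD (log2) assigned to a single probe set was 0.38 for ALCAM+ against marker-negative cells. It was 0.47 for Sca-1+ against marker-negative and 0.53 for ALCAM+ against Sca-1+ cells. The difference between the probe sets of a pair spreads more widely than this SD. Variation among mice or repeated sorts is not part of it.

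Activators, inhibitors and relatives of these enzymes, other proteases among them, were given by a list of 19, of which 18 had a named probe set and 14 were measured. Pcsk5 and Pcsk6, proprotein convertases that can cut the propeptides of secreted enzymes, were the only 2 higher by 4-fold or more in ALCAM+ than in the marker-negative cells, with none lower. Pcsk5 gave 8641 in ALCAM+ cells, 2380 in Sca-1+ and 656 in the marker-negative cells. Pcsk6 gave 14981, 7573 and 3040. Both were highest in ALCAM+ cells, 13.2-fold and 4.93-fold over marker-negative cells, whereas Furin, the common convertase, gave 1346, 758 and 1646.

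A2m, a broad protease inhibitor, gave 1042 in ALCAM+ cells, 64.9 in Sca-1+ and 2353 in the marker-negative cells, at least 31.2-fold lower in Sca-1+ than in the marker-negative cells. Plat, the tissue plasminogen activator, gave 247, 5877 and 811.5. It was highest in Sca-1+ cells, 23.8-fold over ALCAM+ and 7.24-fold over marker-negative cells. Reck, a membrane-anchored MMP inhibitor, gave 5321, 7515 and 5221 and stayed within 1.44-fold.

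Among 7 substrate genes with a named probe set, 5 were higher by 4-fold or more in ALCAM+ than in Sca-1+ cells and 1 was lower. Acan, which encodes aggrecan, gave 31219 in ALCAM+ cells, 2128.5 in Sca-1+ and 25524 in the marker-negative cells. It was lowest in Sca-1+ cells and highest in ALCAM+ cells. Vcan, which encodes versican, gave 196, 14580 and 1539. It was 74.5-fold higher in Sca-1+ than in ALCAM+ cells. Of the enzymes that cut these proteoglycans, Adamts1, Adamts4 and Adamts5 were highest in Sca-1+ cells, like Vcan. Adamts9 was highest in ALCAM+ cells, like Acan. Adamts8 and Adamts15 were above the floor in Sca-1+ cells only and so could be highest only there. Fbn2, a microfibril gene, gave 1656.5, 104.2 and 121.8, and so was high in ALCAM+ cells, where Adamtsl4 and Adamtsl3 were lowest. Fbn1, the gene of fibrillin-1, was listed but had no named probe set. How microfibril genes compare with the ADAMTS-like genes in general was therefore not tested. The remaining 3 genes higher in ALCAM+ than in Sca-1+ cells were Col10a1, Col2a1 and Col1a1, and Comp stayed within 1.42-fold.

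**Figure D4:**
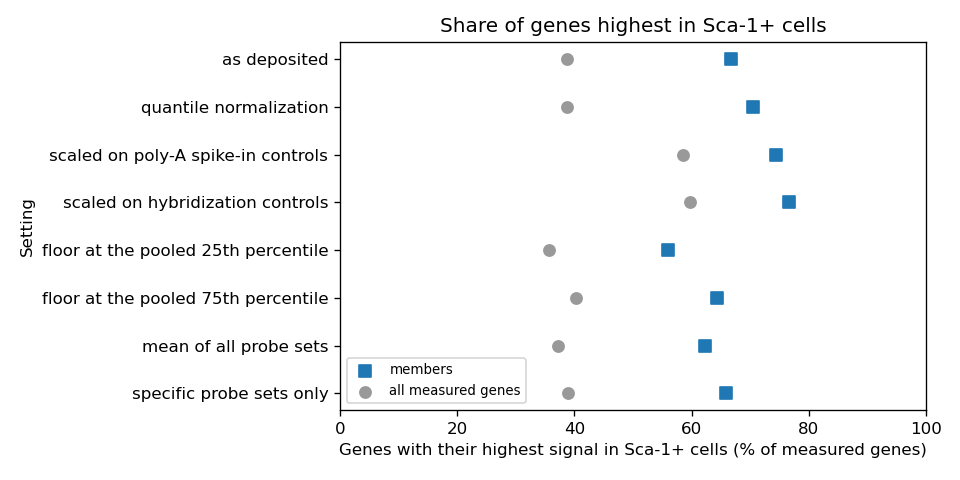
Percent of measured genes with their highest signal in Sca-1+ cells, for the members (squares) and for all measured genes of the array (circles), under the values as deposited and 7 alternative settings. The members lie at 55.9% to 76.6% and the genes of the array at 35.6% to 59.8%, and the members lie to the right in each row.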

How the data were processed

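Gene expression was measured on 3 arrays, 1 per sorted population, grouped by their titles in the labels. Per the labels' protocols, RNA was extracted with TRIzol and labelled with biotin by a 2-cycle amplification. The deposited values are signal intensities that the authors made with MAS5, per the submitters' processing notes (version not given in the sources used here), and share 1 scale, so they were used without rescaling. Values scaled to a common mean cannot show that cells of one population hold more RNA, and the number of arrays limits the precision. Genes were named from the array's annotation table through 34945 probe sets with 1 symbol. Another 932 probe sets with several symbols were not used, 5 of them with a symbol of these families, and 64 control probe sets entered no gene result.

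Signals were raised to the floor and turned to log2 (Python 3.11.15, pandas 2.3.3), and a size rule of 4-fold was applied to every gene. A fold against a value that had been raised to the floor is a lower bound. Simulated data, with differences planted in bright genes and small noise, served only to check the calculation. They do not cover dim genes or the spread of real arrays, so the error of the rule is not known. Each member past 4-fold, each TIMP and measured ADAMTS-like gene and the 2 brightest members of each subfamily were to be named. Other measured members were added after their values were seen. The members, the gene lists and the settings were chosen with earlier results of these data known. The alternatives were quantile normalization, scaling on 24 poly-A or 18 hybridization control probe sets, floors at the 25th and 75th percentiles, and averaged probe sets. A further alternative left out suffixed probe sets, those with names ending in _x_at, _s_at or _a_at. Promoters came from RefSeq (GRCm38.p6), with 41 of the 70 members found and searched. Of the gene lists, those for macrophages, megakaryocytes, endothelium and osteocytes had summed signals of 1085, 1180, 176 and 23237.5 in ALCAM+, 1776, 2179, 758 and 1403 in Sca-1+ and 1087, 1689, 139 and 1306 in marker-negative cells.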

Additional observations from a re-analysis of the deposited data

How the results depend on the processing

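None of the 28 calls of members at 4-fold turned direction under any of the 7 alternatives, and 12 kept their side of the rule under each alternative that gave them a value. Calls were lost with a floor at the 75th percentile (433.9), with averaged probe sets and, for Adam12 against Sca-1+ cells, under both control scalings. Adamtsl4 could not be evaluated without suffixed probe sets.

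With the floor at the 75th percentile, 6 members were higher in Sca-1+ than in the marker-negative cells and 0 lower, 4 were lower in ALCAM+ than in Sca-1+ cells, and 0 were lower in ALCAM+ than in the marker-negative cells. With the floor at the 25th percentile (21.1), 5 members were higher and 4 lower in ALCAM+ than in the marker-negative cells, and 2 were lower in Sca-1+ than in the marker-negative cells. A higher floor shortens and a lower floor lengthens the differences of dim genes by construction. Scaled on poly-A and on hybridization controls, 17 and 14 members were lower in ALCAM+ than in Sca-1+ cells and 3 and 2 lower in ALCAM+ than in the marker-negative cells, while the median of all measured genes moved to -0.82 and -0.74 in the former comparison and to -0.58 and -0.46 in the latter. It moved to 0.20 and 0.24 for Sca-1+ minus marker-negative cells. With averaged probe sets 2 members were higher in ALCAM+ than in Sca-1+ cells, and without suffixed probe sets 0 were lower in ALCAM+ than in the marker-negative cells. No paired analysis was possible because each population has 1 array.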
